A study of Mus musculus with 12 samples.

Results

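S100a8, S100a9, Csf3r, Retnlg, Ly6g, Mmp8, Il1b, Camp, Ngp and Ltf are genes that mark neutrophils, fill their granules or take part in calling them to tissue, and they were followed through mouse tumours driven by a fusion of EWSR1 and ATF1, the event behind clear cell sarcoma of soft tissue. The choice was by symbol, and each of the 10 symbols met exactly 1 Ensembl identifier among the 55536 genes of the count table. RNA had been counted in 12 libraries: 5 translocation tumours with the genotype HprtCre; Ewsr1-loxP; Atf1-loxP, 6 Rosa26 tumours with the genotype Rosa26-LSL-EWSR1-ATF1, and 1 wild-type (WT) skeletal muscle. In the former, Cre sits at Hprt, a housekeeping gene of the X chromosome, and recombines loxP sites in the endogenous Ewsr1 and Atf1 genes. In the latter the fusion is a transgene behind a stop cassette, and where Cre came from is not given in the sources used here, nor are strain, age or whether animals were pooled. All tumours were left untreated and were frozen once illness from the primary tumour set in. Levels below are in CPM, the count of a gene scaled to a common library size, with TMM factors over the 12 libraries. Means are over the 5 translocation or the 6 Rosa26 tumours and stand with their SD, and log2 fold changes stand with their SE.

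Neutrophils are short-lived white cells that are made in the bone marrow, circulate in blood and enter injured or infected tissue. Their granules form in order as the cell matures: primary granules hold myeloperoxidase and serine proteases, specific granules hold lactoferrin and cathelicidin, and gelatinase granules come last. Transcripts of specific granule proteins are made mainly in marrow precursors and fade in mature cells, whereas S100a8, S100a9 and the receptor Csf3r stay on in circulating cells.

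S100a8 and S100a9 encode the subunits of calprotectin, the calcium-binding complex that fills the neutrophil cytosol, and they lie near each other on chromosome 3 (90668978 to 90670035 and 90692632 to 90695721, mm10, GENCODE M21). Ngp (chromosome 9, 110419747 to 110423012) encodes neutrophilic granule protein, and Csf3r (chromosome 4, 126024550 to 126044440) the receptor for the growth factor G-CSF. The sequence before their starts is shown because S100a8 and S100a9 varied together over the libraries and Csf3r took another course. It is from RefSeq, build GRCm38.p6, read on the gene's strand within the 250 bases before the RefSeq start and ended where GENCODE places an earlier start: chr3:90668821-90668977 (plus strand) for S100a8, chr3:90695722-90695971 (minus strand) for S100a9, chr9:110419558-110419746 (plus strand) for Ngp and chr4:126024409-126024549 (plus strand) for Csf3r. Capitals mark TTNNGNAA on either strand, a loose form of the word bound by C/EBP factors, which direct granulocyte genes.
S100a8: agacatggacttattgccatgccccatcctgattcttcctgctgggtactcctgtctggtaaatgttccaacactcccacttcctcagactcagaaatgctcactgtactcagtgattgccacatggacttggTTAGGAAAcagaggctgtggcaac
S100a9: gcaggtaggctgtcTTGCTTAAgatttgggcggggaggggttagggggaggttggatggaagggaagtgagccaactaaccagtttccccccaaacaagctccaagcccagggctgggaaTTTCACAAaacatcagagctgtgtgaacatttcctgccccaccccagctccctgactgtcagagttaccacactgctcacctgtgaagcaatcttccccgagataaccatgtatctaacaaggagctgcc
Ngp: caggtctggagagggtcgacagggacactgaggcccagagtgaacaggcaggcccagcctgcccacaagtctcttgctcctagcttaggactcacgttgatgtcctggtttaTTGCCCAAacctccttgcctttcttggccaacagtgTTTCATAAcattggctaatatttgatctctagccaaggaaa
Csf3r: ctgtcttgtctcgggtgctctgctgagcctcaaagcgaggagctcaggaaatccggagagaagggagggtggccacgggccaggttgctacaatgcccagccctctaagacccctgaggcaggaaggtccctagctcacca
Over the full 250 bases the word was found before 8 of the 10 genes, with none before Csf3r and Camp, and in 36.85% of all 32851 promoter windows of the table. A match of these letters is a description and not a binding site.

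Library totals ran from 2963088 counts in translocation tumour 2 to 25037628 counts in muscle. The shallowest libraries, translocation tumour 2 and Rosa26 tumour 4, had 37.8% and 30.0% of their counts in genes of ribosomal sequence, against at most 7.38% elsewhere. Rosa26 tumour 1 held muscle transcripts, with 33445 CPM for 10 skeletal muscle genes against at most 3210 CPM in the other tumours. Globin genes came to 10700 CPM in translocation tumour 1 and to 5287 CPM in the muscle. Translocation tumours 2 and 5, Rosa26 tumours 5 and 6, and translocation tumour 1 and the muscle have titles that share a stem or number, and the labels do not say whether they came from the same animals. By Xist and the sum of 4 Y-linked genes, translocation tumour 2 read as female (1068 and 0 CPM). Translocation tumour 5 read as male (0.0929 and 320 CPM), so these 2 read as separate animals. Rosa26 tumours 5 and 6 both read as male, and translocation tumour 1 and the muscle as female, which leaves their origin open.

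The 10 genes were scarce in every tumour and uneven between tumours. Summed, they reached 116 CPM in translocation tumour 1 and 111 CPM in translocation tumour 2, then 50.5 and 42.7 CPM in Rosa26 tumours 1 and 5, and 7.10 to 18.5 CPM in the other 7 tumours. The muscle stood at 55.8 CPM. By level per kilobase of exon, the median over the 11 tumours was highest for S100a9 at 9.52 CPM per kb, then 2.39 for S100a8, 2.30 for Csf3r and 0.918 for Il1b, and below 0.5 for the other 6 genes. In bulk tissue, fewer cells of a type and less RNA per cell cannot be told apart.

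**Figure D1:**
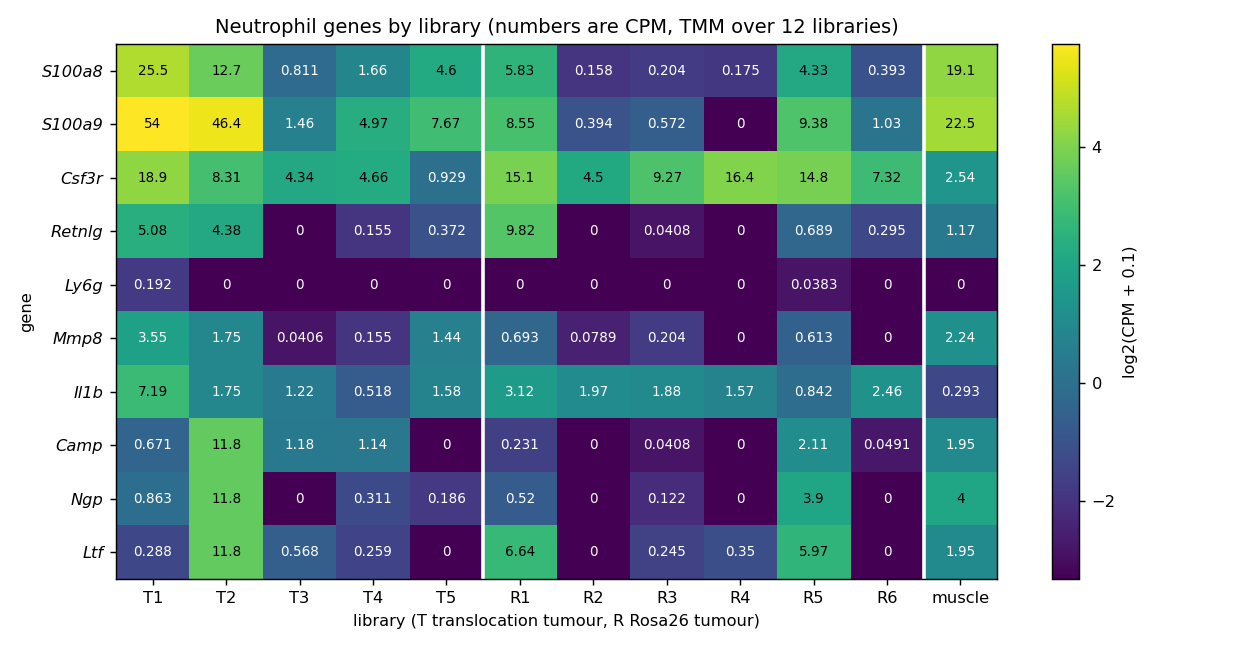
CPM of the 10 genes (rows) in each library (columns), with colour on a log2(CPM + 0.1) scale and the CPM printed in each cell. S100a8 and S100a9 are brightest in translocation tumours 1 and 2 and in muscle, Csf3r is above 4 CPM in 10 of 11 tumours, and Ly6g is at 0 in 9 of 11.

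As a check of the name, the markers most restricted to neutrophils were read first. Ly6g, the surface antigen used to sort mouse neutrophils (chromosome 15, 75155240 to 75159126), held 2 counts in translocation tumour 1, 1 count in Rosa26 tumour 5 and 0 in the other 9 tumours and the muscle. A count of 0 allows up to 0.122 CPM in translocation tumour 3 and up to 1.31 CPM in the shallow translocation tumour 2. Ly6g has close relatives in the Ly6 family, with which reads may be shared. Cxcr2, the chemokine receptor that draws mature neutrophils to tissue, was 3.26 CPM in translocation tumour 1, 1.75 and 1.73 CPM in translocation tumour 2 and Rosa26 tumour 1, and at most 0.613 CPM in the other tumours, with 0 counts in 3 of them. The restricted markers were thus near 0 in most tumours, while Csf3r, Il1b and S100a8 were found in all 11 and S100a9 in 10. Monocytes and macrophages also make Csf3r and Il1b, and which cells any of these transcripts came from was not tested.

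Calprotectin genes set the translocation tumours 1 and 2 apart. S100a8 was 25.5, 12.7, 0.811, 1.66 and 4.60 CPM in translocation tumours 1 to 5. In the Rosa26 tumours its lowest, median and highest values were 0.158, 0.299 and 5.83 CPM. The groups overlapped, since Rosa26 tumours 1 and 5 (5.83 and 4.33 CPM) lay above translocation tumours 3 and 4. From the highest, the order was translocation tumours 1 and 2, Rosa26 tumour 1, translocation tumour 5, Rosa26 tumour 5 and translocation tumours 4 and 3, and the last 4 places went to Rosa26 tumours. The 95% counting intervals of Rosa26 tumour 1, translocation tumour 5 and Rosa26 tumour 5 (4.75 to 7.09, 3.74 to 5.60 and 3.57 to 5.20 CPM) overlapped, as did those of the last 4. Such intervals cover counting error only, since reads without molecular identifiers are not independent molecules.

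S100a9 followed the same course at a higher level. It was 53.99, 46.4, 1.46, 4.97 and 7.67 CPM in translocation tumours 1 to 5, and 0, 0.801 and 9.38 CPM at the lowest, median and highest of the Rosa26 tumours. The 0 was in Rosa26 tumour 4, where it allows up to 0.525 CPM. Again Rosa26 tumours 1 and 5 lay among the translocation tumours. The share of S100a9 in the counts of the pair ran, where the pair had at least 100 counts, from 54.1% in muscle (95% exact binomial interval 49.2 to 58.9%) to 78.5% in translocation tumour 2 (70.6 to 85.1%), over 7 libraries. These intervals did not overlap, and the 2 tumours nearest the muscle were Rosa26 tumour 1 at 59.4% (53.1 to 65.6%) and translocation tumour 5 at 62.5% (56.4 to 68.4%).

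**Figure D2:**
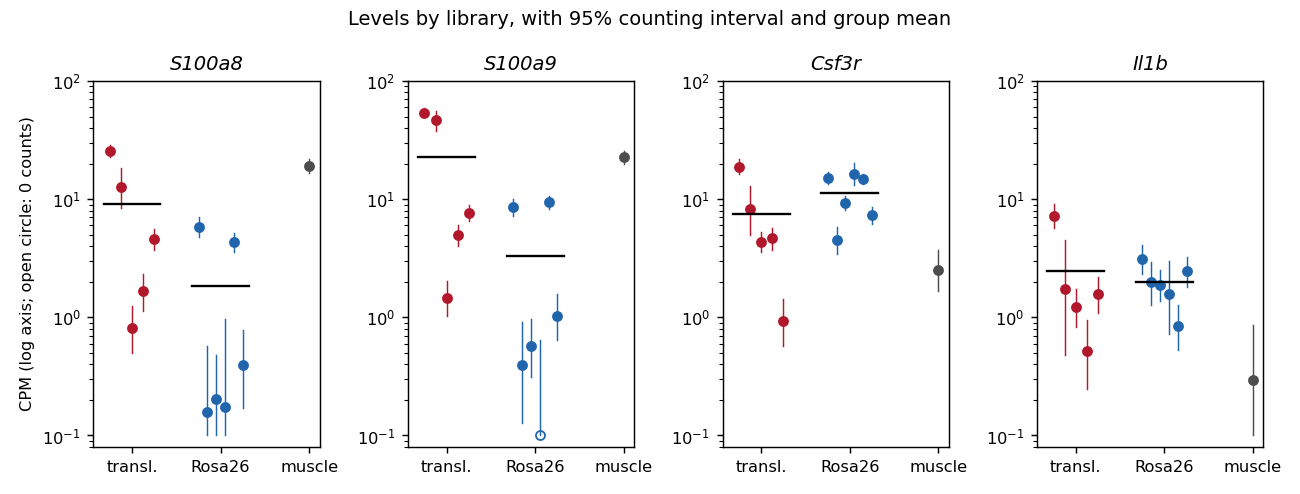
CPM (log axis) of S100a8, S100a9, Csf3r and Il1b in each library, with vertical lines for the 95% Poisson interval of the count and a black bar for the group mean. Rosa26 tumours 1 and 5 reach the translocation range of S100a8 and S100a9 and the other 4 lie at or under about 1 CPM, while Csf3r and Il1b vary less.

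Csf3r, through which G-CSF keeps neutrophils in supply, did not follow calprotectin. Its values were 18.9, 8.31, 4.34, 4.66 and 0.929 CPM in translocation tumours 1 to 5 and 4.50, 12.04 and 16.4 CPM at the lowest, median and highest of the Rosa26 tumours. Translocation tumour 1 was highest and Rosa26 tumours 4, 1 and 5 came next, at 16.4, 15.1 and 14.8 CPM, with intervals that overlapped one another. Rosa26 tumour 4 thus had near the top value of Csf3r with 1 count of S100a8 and 0 of S100a9. Translocation tumour 5 had the lowest Csf3r and a calprotectin sum of 12.3 CPM. Counts of the calprotectin pair ran from 0.0106 per Csf3r count in Rosa26 tumour 4 to 13.2 in translocation tumour 5 and 16.4 in muscle.

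Il1b encodes interleukin 1 beta, an inflammatory cytokine that brings neutrophils into tissue (chromosome 2, 129364570 to 129371139). It was 7.19, 1.75, 1.22, 0.518 and 1.58 CPM in translocation tumours 1 to 5, and 0.842, 1.93 and 3.12 CPM at the lowest, median and highest of the Rosa26 tumours. Only translocation tumour 1 lay above the Rosa26 range. The gene Il1bos overlaps it on the other strand, and the strand setting of the counting is not given in the sources used here.

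The granule genes and Retnlg had 110 to 328 counts each over the 11 tumours. Mmp8, neutrophil collagenase (chromosome 9, 7558456 to 7568485), was 3.55, 1.75, 0.0406, 0.155 and 1.44 CPM in translocation tumours 1 to 5 and 0, 0.142 and 0.693 CPM at the lowest, median and highest of the Rosa26 tumours. Translocation tumours 1, 2 and 5 lay above all Rosa26 tumours and the other 2 among them. Retnlg, a resistin-like protein of circulating neutrophils (chromosome 16, 48872621 to 48874496), was 5.08, 4.38, 0, 0.155 and 0.372 CPM in translocation tumours 1 to 5, against 0, 0.168 and 9.82 CPM at the lowest, median and highest of the Rosa26 tumours. Its top value was in Rosa26 tumour 1, which held 63.2% of all Retnlg counts in tumours.

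Camp (chromosome 9, 109847379 to 109849617), which encodes the cathelicidin antimicrobial peptide, was 0.671, 11.8, 1.18, 1.14 and 0 CPM in translocation tumours 1 to 5. Ngp was 0.863, 11.8, 0, 0.311 and 0.186 CPM, and Ltf, lactoferrin (chromosome 9, 111019271 to 111042767), 0.288, 11.8, 0.568, 0.259 and 0 CPM. Each of the 3 genes held 27 counts in translocation tumour 2, which is why their values there are equal. In the Rosa26 tumours the lowest, median and highest values were 0, 0.0450 and 2.11 CPM for Camp, 0, 0.0612 and 3.90 CPM for Ngp, and 0, 0.297 and 6.64 CPM for Ltf. Rosa26 tumour 5 was highest for Camp and Ngp, and Rosa26 tumours 1 and 5 for Ltf, at 6.64 and 5.97 CPM, while Rosa26 tumour 2 had no count of any of the 3.

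Set against Csf3r, these 3 transcripts separated libraries that calprotectin had put together. Ngp, Camp and Ltf made up 81.0% of their counts plus those of Csf3r in translocation tumour 2 (95% exact binomial interval 71.9 to 88.2%) and 8.80% in translocation tumour 1 (5.38 to 13.4%). The muscle was at 75.7% (66.5 to 83.5%), Rosa26 tumour 5 at 44.7% (41.0 to 48.5%) and Rosa26 tumour 1 at 32.8% (28.2 to 37.7%). Translocation tumours 3, 4 and 5 were at 28.7% (21.6 to 36.6%), 26.8% (19.2 to 35.6%) and 16.7% (4.74 to 37.4%). Monocytes and macrophages also make Csf3r, so the share need not be one of neutrophils alone. In Rosa26 tumour 1 Ltf held 115 of the 128 counts, with 9 for Ngp and 4 for Camp, so the share there is that of Ltf, whereas in Rosa26 tumour 5 the counts were 156, 102 and 55. In Rosa26 tumours 2, 3, 4 and 6 the share was 0 to 4.22%, where the 0 of 57 counts allows up to 6.27% by the same interval.

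**Figure D3:**
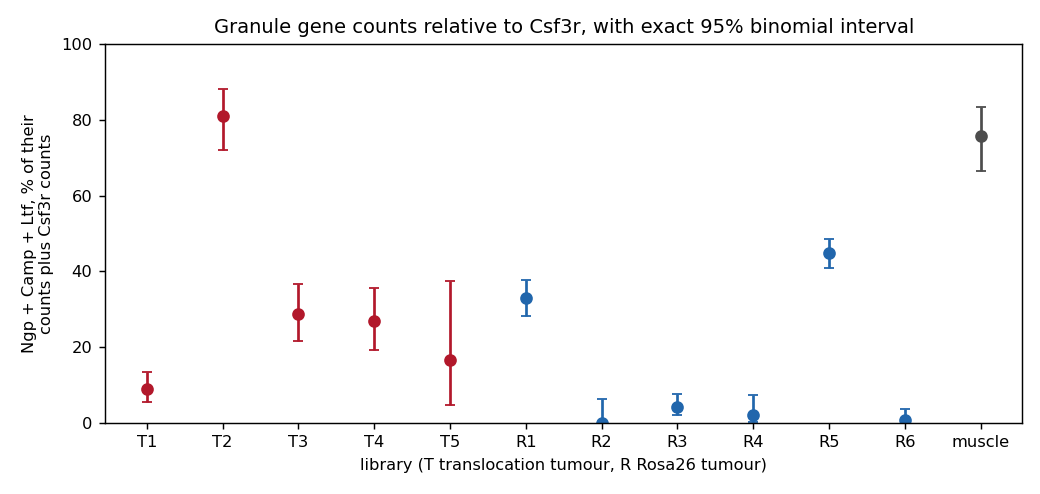
Counts of Ngp, Camp and Ltf as a percentage of their sum with Csf3r counts in each library, with exact 95% binomial intervals. Translocation tumour 2 (81.0%) and muscle (75.7%) are highest, and 4 of the Rosa26 tumours are at 4.22% or less.

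The series compares tumours made by the translocation with those made by the Rosa26 transgene. S100a8 averaged 9.05 ± 10.3 CPM over the translocation tumours (n = 5) and 1.85 ± 2.55 CPM over the Rosa26 tumours (n = 6), and S100a9 22.9 ± 25.2 and 3.32 ± 4.39 CPM. By edgeR's quasi-likelihood test over all genes with Benjamini-Hochberg adjustment, S100a8 had a log2 fold change, translocation over Rosa26, of 2.32 ± 1.13 (adjusted p = 0.226) and S100a9 of 2.82 ± 1.18 (adjusted p = 0.166). Mmp8 had 2.26 ± 1.09 (edgeR adjusted p = 0.222) and Camp 2.62 ± 1.44 (edgeR adjusted p = 0.28). Csf3r had -0.55 ± 0.62 (edgeR adjusted p = 0.617) and Il1b 0.36 ± 0.63 (edgeR adjusted p = 0.76). None of the 6 differences passed. The groups overlapped for all 10 genes, where only 5.18% of all 17021 genes tested were without overlap.

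Of the 10 genes 6 had enough counts to be tested. By edgeR 0 of the 6 passed at an adjusted p of 0.05, where 2.7% of all 17021 genes tested did (1.14% higher and 1.56% lower), and 1 of the 6, S100a9, had an unadjusted p under 0.05, where 24.8% of all genes did. DESeq2 called 0 of the 6 and 2439 of all 17021 genes, with S100a9 nearest among the 6 at an adjusted p of 0.0617. By its Wald test 4 of the 6 (S100a8, S100a9, Mmp8 and Camp) had an unadjusted p under 0.05, where 4663 of the 17021 genes did. Limma voom with quality weights called 2651 of the 17021 genes and, of the 6, Camp alone (log2 fold change 3.32, voom adjusted p = 0.046). By edgeR or DESeq2 Camp had an adjusted p of 0.172 to 0.799 in the other settings that tested it. Without translocation tumour 1 the log2 fold change was 1.36 for S100a8, 1.37 for Mmp8 and -1.33 for Csf3r (edgeR adjusted p = 0.512, 0.507 and 0.211), and without translocation tumour 5 it was -0.26 for Csf3r (edgeR adjusted p = 0.795). Camp had 0.79 on the log2 scale without translocation tumour 2 (edgeR adjusted p = 0.732), and Il1b turned to -0.66 without translocation tumour 1 (edgeR adjusted p = 0.482). Retnlg, Ngp, Ltf and Ly6g were below the filter. With no filter they had log2 fold changes of 0.03, 1.51, -0.01 and 1.32 with standard errors of 1.67, 1.69, 1.54 and 1.28 (edgeR adjusted p = 0.994, 0.608, 0.999 and 0.613).

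**Figure D4:**
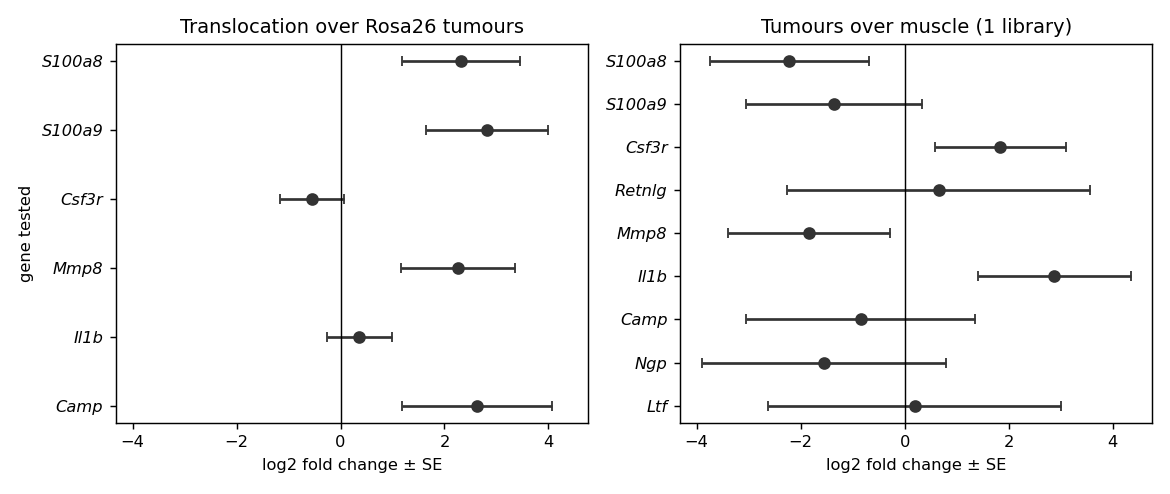
Log2 fold change (points) with its SE (bars) from the edgeR fits of all genes, for the members tested between tumour groups (left, 6 genes) and between tumours and the single muscle library (right, 9 genes). Calprotectin, Mmp8 and Camp are at 2.26 to 2.82 on the left, and none of the values on either side passed the test.

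Red cell transcripts also differed widely between tumours. The summed CPM of Hbb-bs, Hbb-bt, Hba-a1 and Hba-a2 was 10700, 449.8, 284, 288 and 142 in translocation tumours 1 to 5, and 967, 39.6, 19.2, 2.45, 91.5 and 7.86 in Rosa26 tumours 1 to 6. The 4 Rosa26 tumours with the least S100a8 and S100a9 were the 4 with the least globin. With log2 globin CPM as a covariate, a setting added after the data had been seen, S100a8 had a log2 fold change of 0.41 ± 0.95 and S100a9 of 0.81 ± 1.16 (edgeR adjusted p = 0.856 and 0.76), and that setting left 0 calls among all 17021 genes by edgeR, with 2948 at an unadjusted p under 0.05. The order was not shared throughout: translocation tumour 2 had 59.1 CPM of the pair with 449.8 CPM of globin, and translocation tumour 3 had 2.27 CPM with 284 CPM. The part of red cell transcripts in the difference was not tested.

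**Figure D5:**
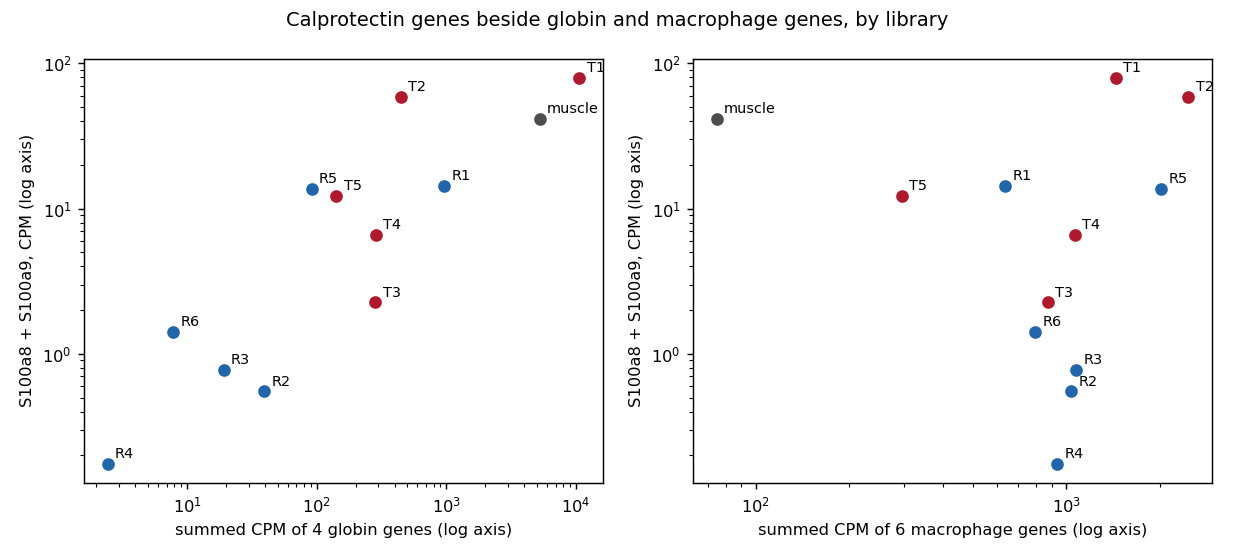
Summed CPM of S100a8 and S100a9 against summed CPM of 4 globin genes (left) and of 6 macrophage genes (right), 1 point per library, all axes log. Rosa26 tumours 2, 3, 4 and 6 are lowest on both axes on the left, while on the right the muscle has little macrophage signal (75.0 CPM) beside 41.7 CPM of the pair.

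Macrophage genes were abundant in all tumours and did not order them as calprotectin did. C1qa, C1qb, C1qc, Csf1r, Mrc1 and Adgre1 summed to between 296 CPM in translocation tumour 5 and 2471 CPM in translocation tumour 2, with 637 to 2024 CPM in the Rosa26 tumours. Of 12 macrophage and monocyte genes tested between the tumour groups 0 passed edgeR, 1 at an unadjusted p under 0.05, with a median log2 fold change of 0.18 against 0.07 over all genes. Mrc1, the mannose receptor, was 382 ± 233 CPM over the translocation and 316 ± 229 CPM over the Rosa26 tumours.

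The single muscle library was set against the tumours next. S100a8 was 19.1 CPM in muscle, above 10 of 11 tumours, and S100a9 22.5 CPM, above 9 of 11. Ngp, at 4.00 CPM, and Mmp8, at 2.24 CPM, were each above 10 of 11 tumours. Csf3r went the other way, with 2.54 CPM in muscle and more in 10 of 11 tumours, and Il1b, with 3 counts or 0.293 CPM, was lower in muscle than in any tumour. The fold changes, mean of the tumour groups over muscle, were -2.22 ± 1.52 for S100a8, -1.36 ± 1.69 for S100a9, 1.84 ± 1.26 for Csf3r and 2.88 ± 1.48 for Il1b on the log2 scale (edgeR, with adjusted p of 0.329, 0.585, 0.325 and 0.2). By edgeR 0 of 9 members tested passed at an adjusted p of 0.05 and a change of 1 or more on the log2 scale. The same rule called 16.6% of all 22184 genes (5.25% higher and 11.4% lower). At an unadjusted p under 0.05 by edgeR were 0 of the 9 and 31.7% of all genes. DESeq2 gave no p-value for Ngp and called 0 members, where it called 5523 of all genes. Il1b had an unadjusted p of 0.0412 by its Wald test, where 7774 genes were under 0.05. The muscle library was assumed to vary as the tumours do, and the median over all genes was 0.70 on this scale. TMM scaling set the values of that library higher than plain totals do: by totals S100a8 was 7.83 CPM there, above 9 of 11 tumours, S100a9 was above 7, Mmp8 above 8 and Ngp above 9.

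Other neutrophil genes, from lists chosen with the members, were read from the same fits. Of 9 genes of primary granules and progenitors 8 were in the table and 2 were tested, and 0 passed, also at an unadjusted p under 0.05. Mpo, myeloperoxidase, reached 11.4 CPM (26 counts) in translocation tumour 2, with 0.604 CPM as the next value, while Elane, neutrophil elastase, had 12 counts over all 11 tumours and 0 in translocation tumour 2. Ms4a3 and Fcnb were at 0 counts there too, and Ctsg, cathepsin G, was 1.31 CPM there and 1.63 CPM in translocation tumour 1. Prtn3, proteinase 3, was 1.66 ± 1.89 CPM over the translocation and 0.597 ± 0.403 CPM over the Rosa26 tumours. It was highest in translocation tumour 2 at 4.81 CPM (11 counts), with 1.86 CPM as the next value. The 8 genes summed to 20.6 CPM in translocation tumour 2 and to at most 4.09 CPM in any other tumour.

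Of 12 other specific and gelatinase granule genes 10 were tested, 1 rose, 0 fell and 5 had an unadjusted p under 0.05, with a median log2 fold change of 0.88. Hp, haptoglobin, which neutrophils store and liver secretes, averaged 12.1 ± 13.98 CPM over the Rosa26 tumours and rose by 3.66 ± 0.85 on the log2 scale, to 148 ± 115 CPM over the translocation tumours (edgeR adjusted p = 0.0443). It was 287, 35.9, 182, 213 and 23.9 CPM in translocation tumours 1 to 5, so it was high in tumours 3 and 4, where calprotectin was low. The Hp call held in 3 of 11 fits that left out a tumour, those without translocation tumour 2 or 5 or Rosa26 tumour 1 (edgeR adjusted p up to 0.114 in the others). It was lost with globin as a covariate (edgeR adjusted p = 0.218) and with sex as a covariate (edgeR adjusted p = 0.0547). Lyz2, lysozyme of all myeloid cells, was 446 ± 228 and 247 ± 111 CPM (edgeR adjusted p = 0.258 for a log2 difference of 0.90), and Anxa1, a brake on neutrophil entry into tissue, 139 ± 67.9 and 72.3 ± 30.2 CPM (0.98, edgeR adjusted p = 0.154).

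Among 19 genes of the surface and cytosol of mature neutrophils, 7 were tested, 1 rose, 0 fell and 1 had an unadjusted p under 0.05, with a median log2 fold change of 0.27. The gene that rose was Clec4d, a C-type lectin of neutrophils and monocytes. It was 33.0, 4.81, 1.14, 1.14 and 4.60 CPM in translocation tumours 1 to 5 and 0.0982 to 0.866 CPM in the Rosa26 tumours, without overlap, as for 5.18% of all genes tested. Its call (log2 fold change 3.97 ± 0.94, edgeR adjusted p = 0.0469) held in 4 of 11 fits with a tumour left out, and without translocation tumour 1 the log2 fold change was 2.29 (edgeR adjusted p = 0.102). With globin as a covariate it was 1.60 (edgeR adjusted p = 0.406). Cd300ld, an immunoreceptor of myeloid cells, was 9.48 ± 4.19 and 8.03 ± 3.76 CPM (log2 fold change 0.27, edgeR adjusted p = 0.754).

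Signals that draw neutrophils differed widely between tumours: 12 attractants and growth factors summed to 72.2 CPM in translocation tumour 1, 46.7 CPM in translocation tumour 5, of which Il17a made up 38.0 CPM, and 2.16 to 18.7 CPM in the other tumours. Of these 12 only Cxcl1 and Il6 were tested, 0 passed by edgeR and 1 had an unadjusted p under 0.05, with a median of 1.38. Cxcl1, a ligand of Cxcr2, reached 10.5 CPM in translocation tumour 1, with 1.71 CPM as the next value (log2 fold change 2.60 ± 0.92, edgeR adjusted p = 0.116). Il6 was 3.53 ± 4.05 and 3.29 ± 1.89 CPM in the translocation and Rosa26 tumours. Cxcl2, another Cxcr2 ligand, was below the filter with 23.97 CPM in translocation tumour 1, 3.30 CPM in translocation tumour 5 and no more than 0.438 CPM in the rest, and Csf3, which encodes G-CSF, reached 3.16 CPM in translocation tumour 1, with 0.231 CPM as the next value.

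In the interleukin 1 system 9 of 10 genes were tested, 0 passed and 1 had an unadjusted p under 0.05, with a median log2 fold change of 0.26. Il1r1, the signalling receptor, was 98.3 ± 112.6 CPM over the translocation and 44.4 ± 20.7 CPM over the Rosa26 tumours, with 295 CPM in translocation tumour 1. Il1rap, its partner chain, was 17.1 ± 10.4 and 8.76 ± 4.61 CPM, and Gsdmd, the pore protein through which Il1b leaves cells, 27.5 ± 17.9 and 23.6 ± 10.2 CPM.

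All 6 genes of the phagocyte oxidase, the enzyme of the neutrophil oxidative burst, were tested. By edgeR 0 passed and 2 had an unadjusted p under 0.05, in opposite directions, and the median log2 fold change was -0.15. Cyba, the smaller membrane subunit, was 131 ± 38.7 CPM over the translocation and 61.8 ± 26.8 CPM over the Rosa26 tumours, with a log2 fold change of 1.13 (edgeR adjusted p = 0.0686). Cybb, the larger one, was 20.8 ± 7.90 and 46.2 ± 25.4 CPM, with a log2 fold change of -1.10 (edgeR adjusted p = 0.156), and Ncf1, a cytosolic subunit, was 22.9 ± 18.2 and 25.3 ± 12.96 CPM.

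Receptors for calprotectin and their partners were also tested in full, and by edgeR 0 of 6 passed, 2 at an unadjusted p under 0.05, with a median of 0.78 on the log2 scale. Tlr4, which senses calprotectin and endotoxin, was 39.7 ± 21.4 CPM over the translocation and 29.4 ± 10.8 CPM over the Rosa26 tumours. Myd88, its adaptor, was 24.4 ± 11.1 and 20.9 ± 4.88 CPM. Cd36, a scavenger receptor that binds S100a8 and S100a9 with fatty acids, was 717 CPM in muscle and 171 CPM in Rosa26 tumour 1, where muscle genes were high.

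Markers of other cells that make or accompany these genes were read last. Keratinocytes can make S100a8 and S100a9, and their 10 listed genes summed to at most 24.8 CPM in any tumour, with Krt6a, a keratin of activated epidermis, at 1 count over all tumours. Krt14, a basal keratin, was highest in Rosa26 tumours 2 and 6 (14.8 and 14.4 CPM), where calprotectin was low, and 0.0959 and 0 CPM in translocation tumours 1 and 2. Krt5, its partner, was 4.46 CPM in translocation tumour 5 and 1.39 CPM in Rosa26 tumour 1, where calprotectin was higher, and no more than 0.207 CPM in the rest. Of the 10, 3 were tested and 0 passed edgeR, also at an unadjusted p under 0.05, with a median log2 difference of -0.94.

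Of 10 erythroid and platelet genes 7 were tested, 1 rose, 0 fell and 6 had an unadjusted p under 0.05, with a median log2 fold change of 3.76. The gene that rose was Pf4, platelet factor 4, which macrophages also make, at 66.7 ± 71.7 CPM over the translocation and 5.09 ± 1.96 CPM over the Rosa26 tumours (edgeR adjusted p = 0.0181, or 0.0629 at most with a tumour left out, where the call was lost without Rosa26 tumour 3 or 6, and 0.201 with globin as a covariate). On the log2 scale the globin genes Hbb-bs and Hba-a1 differed by 3.60 ± 1.63 and 4.22 ± 1.55, without passing (edgeR adjusted p = 0.196 and 0.127). Eosinophil and mast cell genes summed to 3.26 to 41.7 CPM, highest in Rosa26 tumour 1, and the 1 of 10 that was tested, Kit, did not pass (edgeR adjusted p = 0.919). Of 10 lymphocyte genes 7 were tested, 0 rose, 1 fell and 3 had an unadjusted p under 0.05, with a median of -1.18. The gene that fell was Cd3e, a chain of the T cell receptor complex, at 0.0943 ± 0.0785 CPM over the translocation and 3.73 ± 4.95 CPM over the Rosa26 tumours (edgeR adjusted p = 0.0413), a call that held in 1 of the 6 fits with a tumour left out that tested it. With the tumours of shared title stems summed, the calls on Hp, Clec4d, Cd3e and Pf4 were all lost (edgeR adjusted p = 0.0696, 0.0839, 0.0736 and 0.0542). That sum also joined translocation tumours 2 and 5, which read as of unlike sex. Of 10 skeletal muscle genes, all tested, 0 passed, also at an unadjusted p under 0.05, and their median log2 fold change was -3.02. Of 8 endothelial genes 0 passed edgeR, 3 at an unadjusted p under 0.05, with a median of -0.86. Selp, P-selectin, on which neutrophils roll, was 586 CPM in translocation tumour 3 and 169 CPM in translocation tumour 4, where calprotectin was low, with 28.0 ± 28.5 CPM in the Rosa26 tumours.

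The genes whose level went most nearly with S100a8, Csf3r and Il1b were sought over the 11 tumours, by the root mean square difference of log2 CPM after each gene was centred. Among genes other than the 10, S100a8 was nearest to Pf4 and to Slc22a23, an orphan transporter (differences of 1.16 and 1.20 on the log2 scale), where the SD of S100a8 itself was 2.33. Among the 10 its difference from S100a9 was 0.77, from Mmp8 0.96, from Camp 1.90, from Il1b 2.10 and from Csf3r 2.36. Csf3r was nearest to Sh3bp1, Adcy9 and Oas3 (0.31, 0.32 and 0.33, with an SD of 1.21), and Il1b to Avil, March2 and Adam8 (0.52, 0.53 and 0.56, with an SD of 0.92). Adam8 is a membrane protease that neutrophils carry. Of these genes Slc22a23 and Pf4 passed the test between tumour groups (for Slc22a23, 3.33 ± 0.64 on the log2 scale, edgeR adjusted p = 0.0256). These likenesses are descriptions over tumours that share libraries and depth.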

How the data were processed

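Per the labels, RNA depleted of ribosomal RNA went into stranded libraries. The deposited table holds whole-number counts per Ensembl gene, not normalized; STAR 2.7.5a, featureCounts, RSEM, cutadapt, DESeq2 and build mm10 are listed, without role or order, by the submitters' processing notes. How strand and reads with several matches were treated is not given in the sources used here. Symbols were found for 55450 of 55536 identifiers; positions and exon lengths came from GENCODE M21.

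Tumours were compared with edgeR 4.0.16 in R 4.3.3 (TMM, filterByExpr at a minimum count of 10, robust quasi-likelihood tests, Benjamini-Hochberg adjustment at 0.05), and muscle was set against them in 1 fit over the 12 libraries. DESeq2 1.42.0 and limma 3.58.1 voom were alternatives. The fits were tested on simulated data in which all genes had the same spread. That does not show how they do on genes as uneven between tumours as the members. A count of 0 was given a floor of 3 counts per library. Replicate numbers follow sample order, and the labels do not say that samples came from separate animals, so the p-values cover only the spread among the samples, which may be technical. Members and lists were chosen with earlier results of these data known. Genes named were the 10 members, from each list the 3 tested genes of highest mean level and up to 3 that passed, and the 3 nearest to S100a8, Csf3r and Il1b; Mpo, Elane, Ms4a3, Fcnb, Ctsg, Cxcr2, Cxcl2, Csf3, Il17a, Krt5 and Krt6a, and those in the other observations, were added after their values were seen. Results for some genes that this rule names are not reported here. An alternative used sex, as given by Xist and the sum of 4 Y-linked genes. Translocation tumours 1 to 4 and Rosa26 tumours 1 and 4 read as female and the other tumours as male, so sex and genotype are partly confounded. With sex as a covariate the log2 fold change was -1.51 for Csf3r, 1.81 for S100a8 and 2.24 for S100a9 (edgeR adjusted p = 0.163, 0.33 and 0.302). In that setting the calls on Clec4d, Cd3e and Pf4 held and the call on Hp did not.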

Additional observations from a re-analysis of the deposited data

Results flagged for a closer look

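Within a group of 5 or 6 tumours, 1 library stood apart from the rest for 9 of the 20 groups of values examined (Dixon's test at 95%), always as the highest. That test flags about 1 in 20 by chance where values are normally distributed. CPM from few counts with many zeros need not be, so 9 of 20 cannot be set against that rate. Translocation tumour 2 stood apart for Camp, Ngp and Ltf, each at 11.8 CPM from 27 counts in the shallowest library, and the next values were 1.18, 0.863 and 0.568 CPM. Translocation tumour 1 stood apart for Il1b at 7.19 CPM and for Ly6g at 0.192 CPM, the latter from 2 counts. Rosa26 tumour 5 stood apart for Camp at 2.11 CPM, for Ngp at 3.90 CPM and for Ly6g at 0.0383 CPM, from 1 count. Rosa26 tumour 1 stood apart for Retnlg at 9.82 CPM. For both Ly6g groups the outcome was fixed, since a single library above 0 beside zeros stands apart whatever its value, so neither of those flags carries information. The values of 1 library are not independent of one another.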

How the results depend on the processing

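The count of genes called between tumour groups was 460 in the reported fit and 2439 with the DESeq2 Wald test, 2651 with limma voom, 2534 with sex as a covariate, 141 with libraries of shared title stems summed, and, in settings added after the data were seen, 0 with globin as a covariate (edgeR, 2948 at an unadjusted p under 0.05) and 149 without translocation tumour 1 and Rosa26 tumour 1. It ran from 63 to 744 with a tumour left out. Against muscle 3686 genes were called, and 2838 to 5987 with a tumour left out. The count of members called between groups was 1 (Camp) with voom and 0 in every other setting run. Il1b reversed to -0.40 with voom, -0.90 with globin as a covariate and -0.48 without translocation tumour 1 and Rosa26 tumour 1, and ran from -0.66 to 0.64 with a tumour left out. Against muscle Retnlg ran from -0.82 to 0.83 and Ltf from -1.29 to 0.36 with a tumour left out. The member fold changes kept their direction and their side of the threshold in 126 of 131 values between tumour groups and in 122 of 126 against muscle. No member was called in the reported fits, so a value of any size counts as kept if its sign holds and it stays uncalled. S100a8 at 0.41 with globin as a covariate, against 2.32 in the reported fit, is among them. All 60 member means kept within 1 SD under the other scalings. That SD is the one between tumours and can exceed the mean (2.63 with an SD of 5.14 for Ngp in the translocation tumours), so the rule is wide. The cause of the shifts between settings was not tested. No paired analysis was possible because replicate numbers only follow the order of samples.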

Other observations

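Il17a, which encodes interleukin 17A, a cytokine that brings neutrophils into tissue through epithelial and stromal cells, held 818 counts (38.0 CPM) in translocation tumour 5 and 4 counts over the other 10 tumours. That tumour was also highest for Trem1 and Trem3, activating receptors of neutrophils and monocytes, at 17.9 and 9.43 CPM, where the next values were 2.69 and 0.875 CPM. Its Csf3r was the lowest of all tumours at 0.929 CPM and its Ly6g was 0.

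Mmp9, gelatinase B of neutrophils, macrophages and bone-resorbing cells, peaked in translocation tumour 3 at 370 CPM. The next value among the tumours was 29.5 CPM. Granule transcripts were mixed in translocation tumour 3: Ngp was at 0 counts, while Camp held 29 counts (1.18 CPM) and Ltf 14 counts (0.568 CPM). Retnlg and Ly6g were at 0 counts there too. Chil3, a chitinase-like protein of myeloid cells, was 399 CPM in translocation tumour 2 and 0.350 to 100 CPM in the others.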
